A study of Mus musculus with 4 samples.

Results

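The 1700-Rik genes are mouse genes whose names consist of 1700, a clone position and the ending Rik, given to full-length cDNA clones that RIKEN first found in testis libraries. They were chosen by name alone, as all entries of the gene table that match this pattern, and 342 of 23980 genes did so. All 342 could be matched to RefSeq genes (289 by the name itself, 53 by an older symbol). Of these, 130 are protein coding, 200 are long noncoding RNAs (lncRNAs) and 12 are pseudogenes; 15 lie on the X chromosome.

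Stranded polyA(+) libraries were made from leptotene/zygotene (L/Z) spermatocytes, germ cells at the start of meiosis, after fluorescence-activated cell sorting. All animals were F1 hybrids of C57BL/6J and MSM/Ms, aged 3 to 4 weeks, and gave 4 libraries. These were a heterozygous and a knockout (KO) library of the Dnmt3L line, and a wild-type (WT) and a KO library of the Pld6 line. Pld6 encodes a mitochondrial nuclease needed to make piRNAs, and Dnmt3l encodes the cofactor of de novo DNA methylation in male germ cells. The Dnmt3L heterozygote and the Pld6 WT, called the heterozygote and the wild type from here on, served as the 2 controls, and each mutant had 1 library. Both controls differ in genotype and line, so the spread between them holds more than replicate error, and the mutant values could not be checked against a replicate.

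Genes that are found in testis cDNA are often switched on late in spermatogenesis. In pachytene spermatocytes a large transcriptional programme starts, driven by factors such as MYBL1 (A-MYB), TCFL5 and RFX2, and it supplies RNAs for the acrosome, the flagellum and the compaction of chromatin long before the spermatid uses them. CREM and its partner FHL5 act on a further wave of genes in round spermatids. The testis also transcribes many lncRNAs whose role is unknown. L/Z cells precede these waves.

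Fragments assigned to genes ranged from 30439943 (Pld6 KO) to 63875934 (Dnmt3L heterozygote). These totals exceed the read numbers given in the methods of the study, so a read may have been counted more than once, and fragment counts and the bounds built on them are those of the table. Each targeted gene was lowest in its own knockout: Pld6 stood at 0.334 FPKM (fragments scaled to gene length and library depth) in the Pld6 KO library and at 8.55 to 19.5 FPKM in the others, and Dnmt3l had 0 fragments in the Dnmt3L KO library and 0.432 to 1.27 FPKM in the others. The libraries stood apart in their markers, which goes in part against the L/Z label. The 19 L/Z markers, such as Sycp3 and Dmc1, summed to 1361 to 3836 FPKM and were present everywhere. The 16 spermatid markers, such as Prm1 and Tnp1, summed to 7413 FPKM in the heterozygote, 224 in the wild type, 13.9 in the Pld6 KO and 31.0 in the Dnmt3L KO library. The 12 pachytene markers, such as Pgk2 and Ldhc, summed to 1142, 660, 77.3 and 67.8 FPKM in the same order. The 13 Sertoli markers summed to 6703, 208, 551 and 9253 FPKM, and the 18 markers of other somatic cells to 947, 177, 838 and 737 FPKM. The 15 spermatogonial markers summed to 740 to 1050 FPKM. Defining markers at 0 were Acrv1, Catsper1 and Acr in the Pld6 KO library and Smcp and Catsper1 in the Dnmt3L KO library. According to the study, testes of both mutants lacked germ cells beyond zygotene, because cells died late in that stage. Its wild-type testes also held later spermatocytes and spermatids. The part of this difference in cell types in the values here was not tested. In whole RNA of sorted cells, fewer cells of a type and less RNA per cell cannot be told apart from the values alone.

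**Figure D1:**
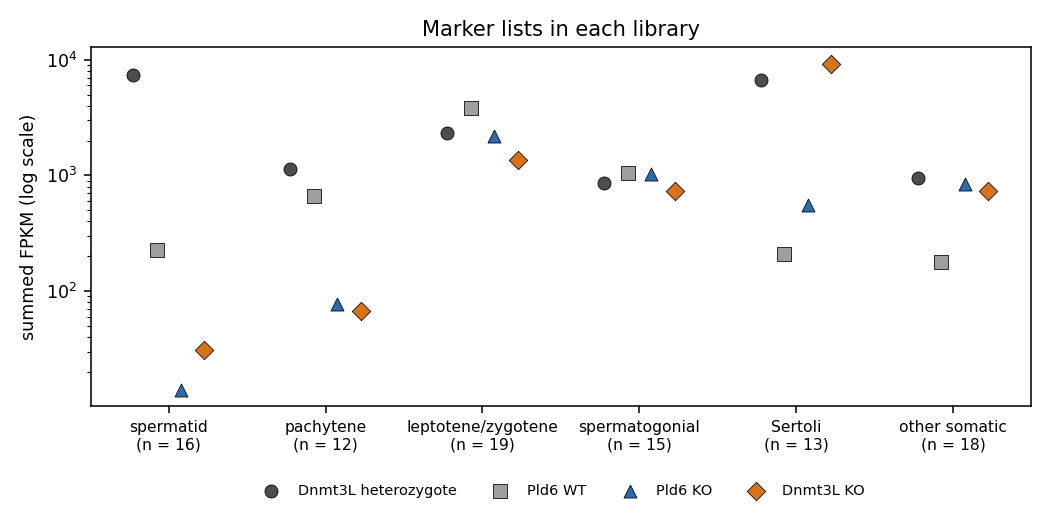
Summed FPKM (y axis, log scale) of 6 marker lists (x axis, n is the number of genes) in the 4 libraries, 1 point per library. Spermatid and pachytene markers are lowest in the mutants, L/Z markers span 1361 to 3836 and spermatogonial markers 740 to 1050 FPKM, and Sertoli markers are highest in the Dnmt3L KO and the heterozygote.

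As a set, the 1700-Rik genes were mostly above 1 FPKM in the controls and mostly below it in the mutants. In the heterozygote 249 of the 342 reached 1 FPKM, in the wild type 219, in the Pld6 KO 86 and in the Dnmt3L KO 90. Their median level was 5.43 FPKM in the heterozygote, 2.06 in the wild type, 0 in the Pld6 KO and 0.0173 in the Dnmt3L KO library. No fragment at all was assigned to 42, 29, 189 and 170 of them, in the same order. Together they took 0.460% and 0.272% of the fragments of the controls, against 0.110% and 0.132% in the Pld6 KO and Dnmt3L KO libraries. Even between the controls the set was uneven: on the scale of FPKM + 1, the heterozygote exceeded the wild type by over 2-fold for 98 of the 1700-Rik genes (11.1% of all genes), and the reverse held for 6 (3.77% of all genes). The summed spermatid, pachytene and Sertoli markers were also higher in the heterozygote, and their part in this difference was not tested.

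**Figure D2:**
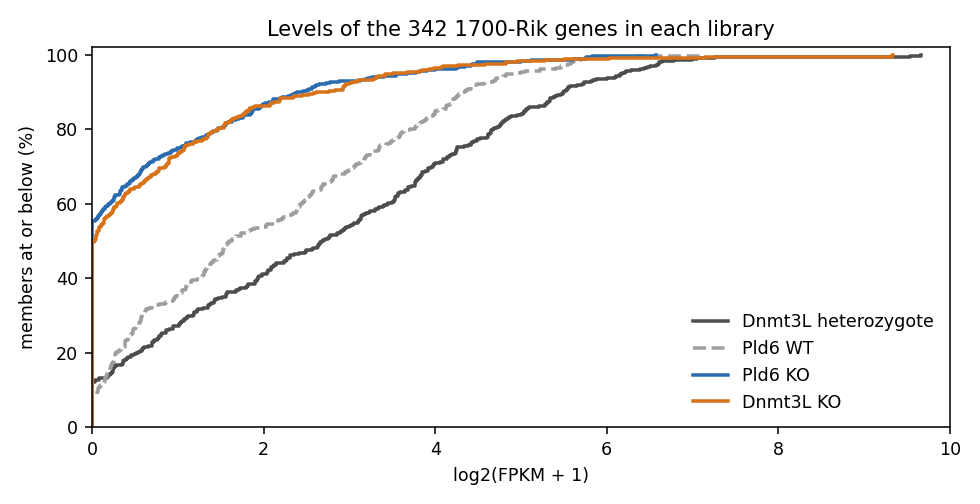
Cumulative share of the 342 1700-Rik genes (y axis, percent) at or below each level (x axis, log2(FPKM + 1)), 1 line per library. The lines of the Pld6 KO and Dnmt3L KO libraries start above 49% at a level of 0 and lie together, while the heterozygote lies below the wild type over most of the range.

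The criterion for a lower or higher gene was a value of FPKM + 1 over 2-fold below, or above, each of the controls. In the Pld6 KO library 149 of the 342 1700-Rik genes (43.6%) were lower, against 5.41% of all genes, and 1 was higher, against 1.04% of all genes. In the Dnmt3L KO library 152 (44.4%) were lower, against 5.78%, and 1 was higher, against 2.14%. The median change on the log2(FPKM + 1) scale was -1.31 in the Pld6 KO and -1.28 in the Dnmt3L KO library, where the median over all genes was 0. Among the 219 1700-Rik genes with a mean of at least 1 FPKM, 141 (64.4%) and 143 (65.3%) were lower, against 8.57% and 9.16% of all genes at that level.

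Lower genes were divided by how much was left. A gene was called lost when its FPKM was also under 10% of the lower control, lowered when it was not, and kept when it was neither lower nor higher; genes under 1 FPKM in all 4 libraries were set aside as low, or as not detected where no library had more than 3 fragments. In the Pld6 KO library 120 were lost (background 3.40%), 29 lowered (2.01%), 112 kept (58.4%) and 1 raised (1.01%). In the Dnmt3L KO library 115 were lost (3.29%), 37 lowered (2.49%), 109 kept (56.9%) and 1 raised (2.10%). The same 44 were low and the same 36 not detected, and these could not be called in either mutant. A gene with a control under 1 FPKM could not be called lower either, and such genes could count as kept. 1700009J07Rik, for example, stood at 16.6 FPKM in the heterozygote, 0.241 in the wild type and 0 in both mutants, and counts as kept. Of the lost genes, 79 had 0 fragments and 88 at most 3 in the Pld6 KO library. For the Dnmt3L KO library these counts were 58 and 74.

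**Figure D3:**
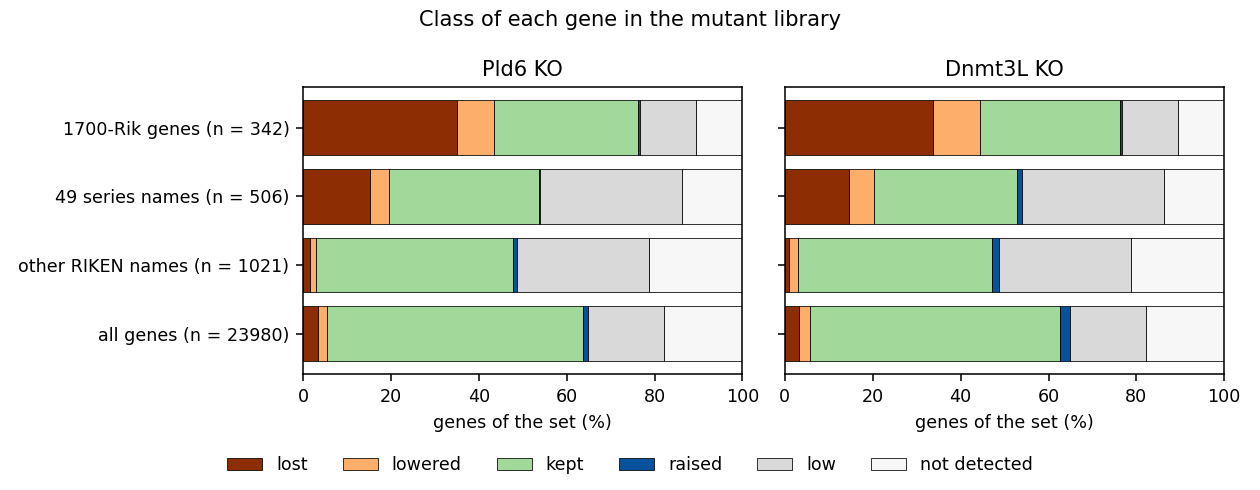
Share of the genes in each class (x axis, percent) for the 1700-Rik genes, RIKEN names of the 49 series, other RIKEN names and all genes, in the Pld6 KO (left) and Dnmt3L KO (right) libraries. The lost class holds 35.1% and 33.6% of the 1700-Rik genes and 3.40% and 3.29% of all genes.

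The 2 mutants share their controls, so lists of genes lower than those controls overlap in part by construction. Side by side, 139 of the 1700-Rik genes were lower in both, which is 93.3% of those lower in the Pld6 KO and 91.4% of those lower in the Dnmt3L KO library. Among all genes 1105 (4.61%) were lower in both, of 1297 lower in the Pld6 KO and 1386 in the Dnmt3L KO library. Most calls were thus shared among all genes too. Lost in both were 101 (background 2.76%). Kept in both were 98 (background 55.3%), but 49 of these were under 1 FPKM in both mutants, and only 39 were at 1 FPKM or more in all 4 libraries. For 42 of the 98 the wild type was under 1 FPKM, which left no room for a lower call. Each mutant was also set against the control of its own line alone, a looser criterion that can only give as many calls or more. The Pld6 KO library had 164 lower and 3 higher 1700-Rik genes than the wild type (background 6.46% and 4.69%). The Dnmt3L KO library had 203 lower and 2 higher than the heterozygote (background 8.22% and 3.00%), the control with the high spermatid markers.

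A test across all genes was also made with edgeR (quasi-likelihood, Benjamini-Hochberg adjustment). It passed 0 of 284 tested 1700-Rik genes at 0.05 in the Pld6 KO, 0 of 284 in the Dnmt3L KO, and 0 of 250 when both mutants were set against both controls; 0.00% of all genes passed in each comparison. Here the spread is that of unlike libraries, with 1 residual degree of freedom in the fits of 1 mutant and 2 in the joint fit. The smallest adjusted p among the 1700-Rik genes was 0.1017, 0.09667 and 0.08774. At an unadjusted p under 0.05, 145, 149 and 161 were lower and 0 higher, where 7.41%, 7.72% and 8.75% of all genes tested were lower and 0.547%, 1.09% and 0.724% higher. DESeq2 called 107, 104 and 144 lower and 0 higher, where it called 4.65%, 4.47% and 5.93% of all genes lower and 0.0729%, 0.0827% and 0.180% higher. Without the filter on low counts edgeR called 54, 51 and 45 lower and 0 higher, where 2.09%, 2.06% and 1.82% of all genes were lower and 0.0389%, 0.0292% and 0.00972% higher. With line (Pld6 or Dnmt3L) as a block, edgeR called 118 of 250 lower and 0 higher (5.98% of all genes lower, 0.741% higher), among them 83 of the 101 lost in both and none of the 39 kept at 1 FPKM or more. That fit has 1 residual degree of freedom. The classes were set by fold change in the same libraries, so the split of these calls between lost and kept genes is no independent support.

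The 101 genes lost in both mutants are 56 coding genes, 38 lncRNAs and 7 pseudogenes. Their level ran from 1.26 to 152 FPKM in the heterozygote (median 20.3) and from 1.07 to 50.9 FPKM in the wild type (median 7.67). In the Pld6 KO library they lay between 0 and 4.48 FPKM and in the Dnmt3L KO library between 0 and 3.35 FPKM, with a median of 0 in each. Of the 101, 61 lay within 2-fold between the controls, 40 were higher in the heterozygote, 8 of them by over 10-fold, and 0 were higher in the wild type.

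Among the genes that fell furthest were several whose controls lay within 2-fold. 1700011E24Rik, now Stpg4 (chromosome 17, 87389570 to 87428081, mm10), encodes a protein with the proline-glycine repeat of sperm tail proteins. It stood at 89.6 FPKM in the heterozygote and 48.1 in the wild type, with 0 fragments in the Pld6 KO library and 0.523 FPKM in the Dnmt3L KO library. It was at least 328-fold below the lower control in the Pld6 KO and 91.9-fold below it in the Dnmt3L KO library. 1700003M02Rik, now Cfap206, encodes a protein of the axoneme, the microtubule core of cilia and flagella. Its levels were 70.1, 46.9, 0.917 and 0.334 FPKM in the heterozygote, wild type, Pld6 KO and Dnmt3L KO libraries, the order used from here on. The mutants were 51.2-fold and 140-fold below the lower control.

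1700123L14Rik, a transcribed pseudogene, stood at 85.3, 50.9, 0.273 and 0.0281 FPKM. 1700010I14Rik, a coding gene on chromosome 17, stood at 72.9, 43.1, 0.358 and 1.12 FPKM. Both genes were chosen among those lower than both controls in a mutant, so the gap between controls and mutants was in part set by the choice. The 5 genes with the smallest edgeR p in the comparison of both mutants with both controls were 1700001J11Rik, 1700029F12Rik, Cfap206, 1700007G11Rik (now Cfap299, a cilia and flagella associated protein) and 1700003E16Rik, and each had an adjusted p of 0.0877 by edgeR. For 1700029F12Rik the levels were 24.1, 14.8, 0 and 0.0268 FPKM. For Cfap299 they were 28.4, 14.9, 0 and 0.0320 FPKM, at least 104-fold and at least 155-fold below the lower control in the Pld6 KO and Dnmt3L KO libraries, which had 0 and 1 fragments. With line as a block the adjusted p of Cfap299 by edgeR was 0.00096.

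Other large falls rested on the heterozygote. 1700027A15Rik, an lncRNA on chromosome 1, stood at 152, 4.24, 0 and 0.0987 FPKM, so that the controls differed 35.8-fold. 1700015G11Rik stood at 126 FPKM in the heterozygote and 1.98 in the wild type, with 0 fragments in either mutant, and 1700042G07Rik at 99.3 and 1.94 FPKM, again with 0 in either mutant. Against the lower control these last 2 genes were at least 3.89-fold lower in the Pld6 KO and at least 5.82-fold lower in the Dnmt3L KO library. 1700034E13Rik was at 87.8 and 3.67 FPKM in the controls and at 0 in both mutants. 1700019M22Rik, a pseudogene, was at 110, 12.8, 0 and 0.106 FPKM. In the order of the libraries these genes follow the summed spermatid markers, and the part of spermatid RNA in their values was not tested.

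**Figure D4:**
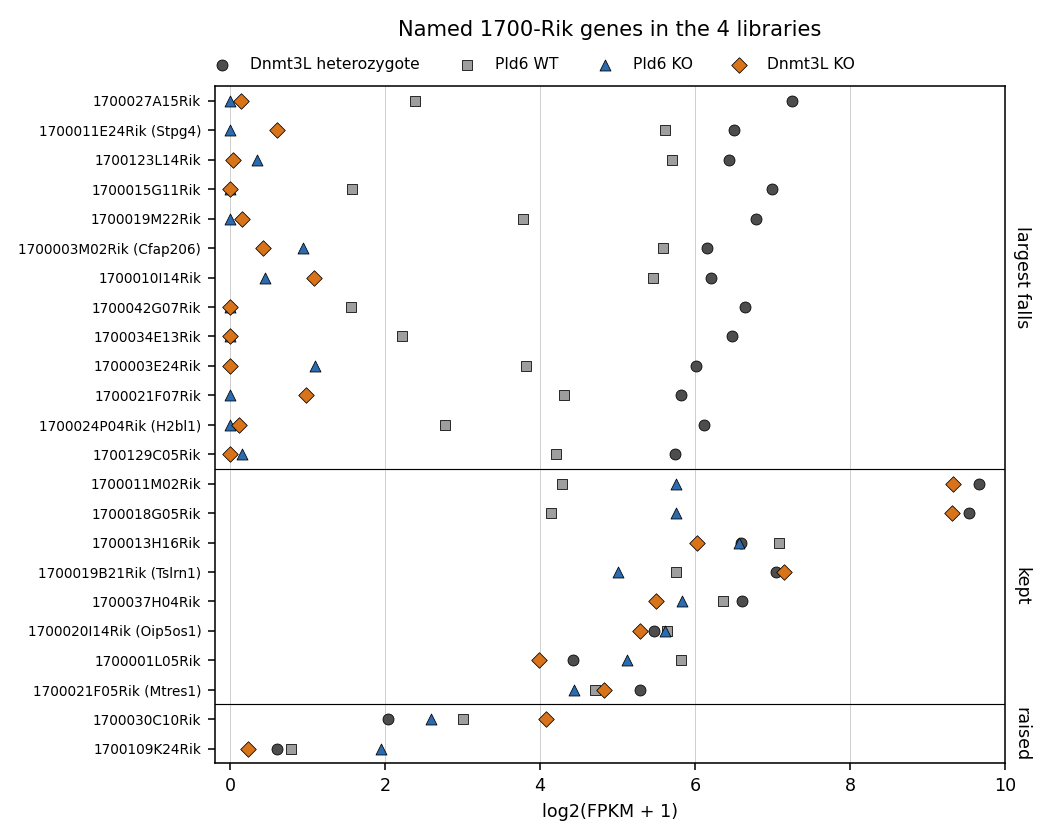
Level (x axis, log2(FPKM + 1)) of named 1700-Rik genes (rows) in the 4 libraries, 1 point per library: the genes with the largest falls, the highest genes kept in both mutants, and the genes raised in a mutant. Genes of the upper block were chosen as lower than both controls in at least 1 mutant, so their place below the controls is in part set by the choice. The gap between the controls differs from gene to gene.

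Some of the 1700-Rik genes have since been named for a role. These groups were drawn from present symbols after the values had been seen and carry no test. Of the 53 genes with a newer symbol, 60.4% were lower in the Pld6 KO and 64.2% in the Dnmt3L KO library, against 5.41% and 5.78% of all genes. Of 7 cilium and flagellum associated genes, 5 were lower in the Pld6 KO and 6 in the Dnmt3L KO library. 1700026D08Rik (Cfap161) stood at 39.3, 15.4, 0.0289 and 2.57 FPKM, and 1700009P17Rik (Cfap126, a basal body protein of ciliated cells) at 30.0, 14.1, 0.720 and 2.56 FPKM. 1700006E09Rik (Cfap97d1) stood at 12.7, 4.06, 0 and 0.0425 FPKM. 1700019L03Rik (Cfap157) was close to the limit in the Pld6 KO library: its FPKM + 1 was 1.98-fold below the lower control, just outside, with levels of 9.61, 6.08, 2.57 and 1.59 FPKM. 1700101E01Rik (Cfap77) was not called in either mutant, at 0.571, 4.21, 1.86 and 0.984 FPKM, but its level in the heterozygote left no room for a lower call.

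Of 8 genes with testis or sperm names, 6 (75.0%) were lower in each mutant, against 60.4% and 64.2% of the genes with a newer symbol. 1700034O15Rik (Llcfc1, a sperm protein needed for fusion with the egg) stood at 38.5, 17.5, 0 and 0.0783 FPKM. 1700015E13Rik (Spata46, a protein of the sperm head) stood at 24.5 and 20.3 FPKM in the controls and had 0 fragments in either mutant, at least 110-fold and 164-fold below the lower control in the Pld6 KO and Dnmt3L KO libraries. 1700026L06Rik (Spaca9, a protein of the acrosome and of axonemal microtubules) stood at 57.9, 13.8, 1.95 and 1.13 FPKM. The 2 not called were 1700019B03Rik (Tex45) and 1700019O17Rik (Tex44), whose wild type levels of 0.435 and 0.210 FPKM left no room for a call.

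Histone variants of the testis and a meiotic gene complete the named roles. 1700024P04Rik (H2bl1, a histone H2B variant) stood at 68.1, 5.83, 0 and 0.0771 FPKM, and 1700054O13Rik (H2ap, of the H2A family) at 38.4, 2.72, 0 and 0 FPKM. 1700012L04Rik (H2al1m) was not called, at 10.8, 0.989, 0.586 and 0.523 FPKM; 83.7% of its 50-base stretches recur in H2al1k, so its reads cannot be assigned to 1 copy. 1700123I01Rik (Majin), whose protein anchors telomeres to the nuclear envelope in meiotic prophase, is a gene of the L/Z stage. It stood at 12.7, 22.9, 8.61 and 5.79 FPKM and was called lower in the Dnmt3L KO library alone, just inside the limit at 2.01-fold. Whether its change differs between the mutants was not tested.

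By type, the share of lower genes ran higher among coding genes than among lncRNAs, a difference that was not tested. The totals include genes low or not detected, which could not be called, and levels were not matched between types. Of the 130 coding 1700-Rik genes, 87 (66.9%) were lower in the Pld6 KO and 89 (68.5%) in the Dnmt3L KO library, against 5.45% and 5.90% of all coding genes. Of the 200 lncRNAs, 55 (27.5%) and 56 (28.0%) were lower, against 6.86% and 6.70% of all lncRNAs. The median change was -2.95 and -2.79 for coding genes and -0.72 and -0.69 for lncRNAs on the log2(FPKM + 1) scale. Of the 12 pseudogenes, 7 were lower in each mutant, against 7.82% and 7.54% of all pseudogenes. On the X chromosome 5 of 15 were lower in each, against 7.87% and 7.49% of all X-linked genes, and on the autosomes 144 and 147 of 327. The 53 genes that have since received another symbol were lower in 32 and 34 cases.

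Further sets of RIKEN names were counted in the same way. Of 506 genes whose RIKEN names begin with 49, also clones of testis libraries, 99 (19.6%) were lower in the Pld6 KO and 103 (20.4%) in the Dnmt3L KO library, with median changes of -0.46 and -0.45. Of 1021 other RIKEN names, 31 (3.04%) were lower in each. The share of low or undetected genes also differed, since 163 of the 506 were low and 70 not detected.

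**Figure D5:**
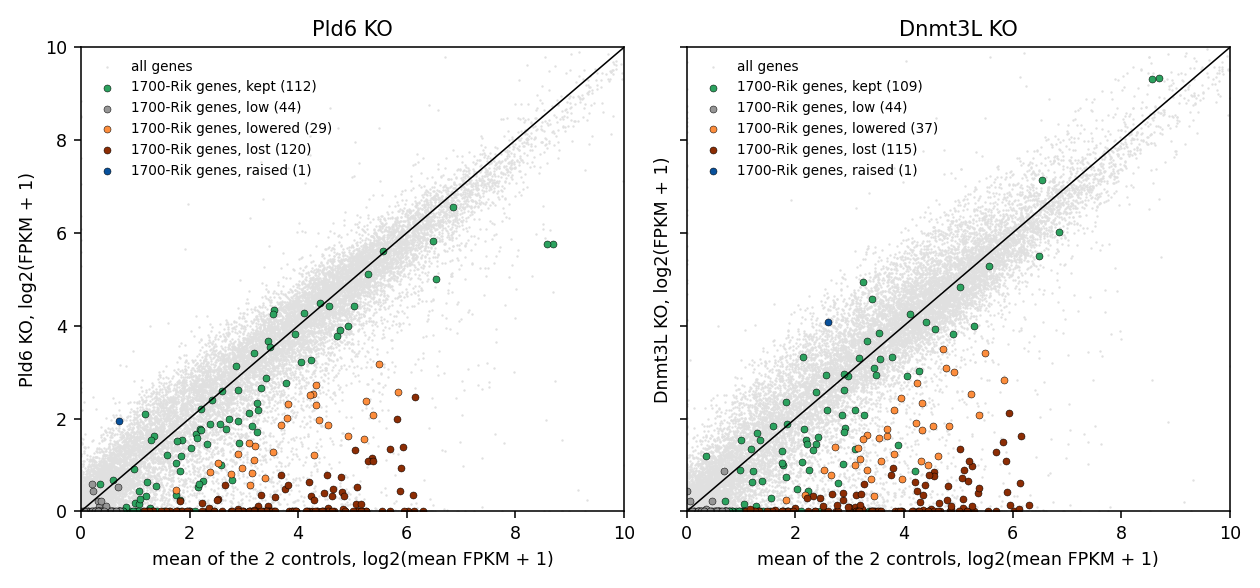
Level in the Pld6 KO (left) and Dnmt3L KO (right) libraries (y axis) against the mean of the 2 controls (x axis), both as log2(FPKM + 1), with all genes in light grey, the 1700-Rik genes coloured by class and the line of equal level. Most lost 1700-Rik genes lie on or near the x axis across control levels up to about 6 on this scale. Of the 98 genes kept in both mutants, the 39 at 1 FPKM or more in every library lie off the x axis, while 49 are under 1 FPKM in both mutants and lie near it.

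The 39 genes kept in both mutants at 1 FPKM or more in every library are 21 lncRNAs, 17 coding genes and 1 pseudogene, and 5 of them lie on the X chromosome. Their median level was 9.14, 9.22, 6.34 and 7.54 FPKM. Some of these are known as broadly expressed genes. 1700020I14Rik (Oip5os1, the conserved lncRNA Cyrano) stood at 43.3, 48.8, 47.8 and 38.0 FPKM, a narrow range in which neither mutant was 2-fold from a control. 1700021F05Rik (Mtres1, a mitochondrial RNA binding factor) stood at 38.0, 25.1, 20.6 and 27.4 FPKM. 1700021K19Rik (Rubcn, a regulator of autophagy) stood at 14.8, 17.8, 18.3 and 18.2 FPKM.

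The 2 highest kept coding genes were less even. 1700013H16Rik, on the X chromosome, stood at 95.5, 134, 93.9 and 64.1 FPKM, and 1700037H04Rik, on chromosome 2, at 96.6, 81.4, 55.9 and 44.3 FPKM. Both were lowest in the Dnmt3L KO library, and for neither did edgeR call a change (adjusted p = 0.949 and 0.568 with both mutants against both controls, and 0.234 and 0.115 with line as a block).

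The highest levels of all came from a pair of neighbouring lncRNAs on the X chromosome, which were high in both libraries of the Dnmt3L line. 1700011M02Rik (102908905 to 102909651) stood at 809 FPKM in the heterozygote, 18.4 in the wild type, 53.2 in the Pld6 KO and 644 in the Dnmt3L KO library. 1700018G05Rik (102928372 to 102929107) stood at 744, 16.6, 53.1 and 636 FPKM. The controls differed 44.0-fold and 44.8-fold, so that the mutants lay between them and count as kept. Another X-linked lncRNA, 1700019B21Rik (Tslrn1), stood at 131, 52.8, 31.0 and 141 FPKM. Of the 342 1700-Rik genes, 6 were more than 2-fold higher in both Dnmt3L line libraries than in both Pld6 line libraries. That is a smaller share than the 4.50% of all genes, so it is no trait of the set. By the same criterion 0 were higher in both of the Pld6 line (background 0.346%). The other three were 1700017B05Rik (14.4, 4.83, 6.34 and 22.9 FPKM), 1700024P16Rik (Fyb2; 16.0, 0.936, 2.29 and 29.9 FPKM) and 1700071M16Rik (8.37, 1.39, 2.66 and 6.65 FPKM). Summed Sertoli markers had the same order in being high in both Dnmt3L line libraries, and their part in these 6 genes was not tested.

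Rises were rare. 1700030C10Rik, an lncRNA on chromosome 12, stood at 3.12, 6.99, 5.04 and 15.8 FPKM, so that the Dnmt3L KO library was 2.26-fold above the higher control. 1700109K24Rik, an lncRNA that overlaps Rbfox2 on chromosome 15, stood at 0.520, 0.719, 2.84 and 0.166 FPKM, and the Pld6 KO library was 3.95-fold above the higher control with 80 fragments. Neither rise passed edgeR's test (adjusted p = 0.731 and 0.834).

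Genes lower in 1 mutant alone were fewer than the 139 lower in both: 10 in the Pld6 KO and 13 in the Dnmt3L KO library. Of all 23980 genes, 1297 were lower in the Pld6 KO library, 1386 in the Dnmt3L KO library and 1105 in both. As a share of genes, falls in 1 mutant alone were thus more frequent in the set than among all genes, as were falls in both. That difference was not tested. 1700012D01Rik stood at 7.72, 5.88, 0.896 and 6.59 FPKM, so that only the Pld6 KO library was low. 1700030F04Rik, at 3.78, 1.48, 1.90 and 0 FPKM, and 1700065D16Rik, at 2.96, 4.33, 3.64 and 0.221 FPKM, were low only in the Dnmt3L KO library, but on 13 and 22 fragments in the Pld6 KO library. With TMM-scaled fragments, not divided by gene length, in place of FPKM their changes in the Dnmt3L KO library shrank from -1.86 and -1.93 to -0.65 and -0.77 on the log2 scale, which ends both calls. 1700001K19Rik, at 25.4, 2.19, 0 and 1.68 FPKM, was lost in the Pld6 KO library and not called in the Dnmt3L KO library. Its controls differed 11.6-fold, and against the heterozygote the Dnmt3L KO library was also lower (-3.30 on the log2(FPKM + 1) scale). The difference between the mutants was not tested for any of these.

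Regulators of the late programme were counted by the same criterion. Of 9 regulators, 3 were lower in the Pld6 KO and 5 in the Dnmt3L KO library. Mybl1, which is needed to pass pachytene, stood at 13.7, 24.7, 16.9 and 15.7 FPKM and was not called in either. Rfx2, a factor of cilium and flagellum genes, was lower in both (22.4, 20.5, 7.23 and 3.67 FPKM), as were Crem (28.0, 23.7, 7.21 and 6.71 FPKM) and Fhl5 (28.1, 6.12, 2.06 and 0 FPKM). Tcfl5 and Sox30 were lower in the Dnmt3L KO library. Tbpl1, Taf7l and Brdt were not called. Of the marker lists, 15 and 14 of the 16 spermatid, 11 and 11 of the 12 pachytene and 1 and 3 of the 19 L/Z markers were lower in the Pld6 KO and Dnmt3L KO libraries. None of the Sertoli or other somatic markers was lower in either mutant, while 0 and 2 of the 15 spermatogonial markers were. Higher than both controls were 3 spermatogonial and 2 other somatic markers in the Pld6 KO library. In the Dnmt3L KO library these were 1 Sertoli, 1 spermatogonial and 4 other somatic markers. The controls lay far apart in summed Sertoli markers (6703 and 208 FPKM), which leaves little room for a call.

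Promoter sequence is shown for 5 of the 1700-Rik genes, to set the letters of MYB and RFX sites beside the classes. The windows are RefSeq promoters of GRCm38.p6, the assembly behind mm10, from 250 bases before to 50 after a start site. A window was held for 271 of the 342 genes (79.2%), under the 80% needed, and for 77 of the 101 lost in both (76.2%), so a comparison of motif shares between classes is void. Of all genes with a window, 4.76% hold GGCAGTT (MYB) and 5.02% GTTGCCA (RFX) on either strand. The examples were chosen after the values were seen, from windows with a match before the start site. Capitals mark the match, and each sequence is written 5′ to 3′ on the strand of the gene.
1700020N18Rik, lost in both, MYB, chr1:91406083-91406139, minus strand: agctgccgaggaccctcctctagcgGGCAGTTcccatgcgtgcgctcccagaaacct
1700084F23Rik, lost in both, RFX, chr13:70028350-70028406, minus strand: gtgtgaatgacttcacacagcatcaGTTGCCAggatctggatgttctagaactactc
1700047E10Rik, kept in both, MYB, chr14:44213286-44213342, minus strand: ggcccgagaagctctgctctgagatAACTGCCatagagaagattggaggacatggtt
1700030C10Rik, raised in Dnmt3L KO, RFX, chr12:20815834-20815890, minus strand: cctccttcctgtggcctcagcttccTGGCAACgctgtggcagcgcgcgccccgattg
1700109K24Rik, raised in Pld6 KO, RFX, chr15:77084271-77084327, plus strand: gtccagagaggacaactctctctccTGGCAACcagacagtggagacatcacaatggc

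1700020N18Rik stood at 12.6 and 7.98 FPKM in the controls and 1700084F23Rik at 3.24 and 1.49 FPKM, with 0 fragments for either gene in both mutants. 1700047E10Rik stood at 7.58, 8.53, 9.57 and 8.82 FPKM, but 56.5% of its 50-base stretches recur in other genes. Both genes that were raised in a mutant held the RFX letters, but the examples were picked for such a match. Across the whole set, 12.9% of the genes with a window held these letters. Whether the letters go with a rise was not tested. A match is a string of letters and not a bound site.

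Near-identical copies and overlapping genes touch part of the set. Of 338 1700-Rik genes with a GENCODE M21 transcript, 32 share over 10% of their 50-base stretches, the length of a read, with another gene, and 11 share over 50%. For 1700003E24Rik (63.3, 13.1, 1.14 and 0 FPKM) the share was 90.5%, and for 1700042G07Rik 58.6%, so the values of both are uncertain. Another gene overlaps 99 of the 1700-Rik genes, and without these 117 of 243 (48.1%) were lower in each mutant.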

How the data were processed

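The authors prepared stranded polyA(+) libraries, sequenced 50 bases from 1 end, used TopHat2 for alignment and Cuffdiff for quantification; versions, and whether counting used strand, were not given in the sources used here. Per the labels the build is mm10. The deposited table lists, for each gene and library, an estimated count of unscaled fragments and the FPKM values that Cuffdiff, run by the authors, scaled to gene length and depth. Estimated counts were rounded to whole numbers here for edgeR and DESeq2. For 28 genes Cuffdiff marked a value as failed, none of them a 1700-Rik gene.

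Changes are log2((FPKM + 1)/(mean FPKM of the controls + 1)), which understates those of low genes. A count of 0 allows for up to 3 fragments, so folds against 3 fragments or fewer are lower bounds per library, and floors cover counting error only. Tests used edgeR 4.0.16 (glmQLFit, TMM, filterByExpr, adjusted p threshold 0.05) and DESeq2 1.42.0 in R 4.3.3, and the scripts were tested on simulated data. The joint comparison set both mutants against both controls, and p-values measure only the spread between these unlike libraries. The line block was tried because the libraries of a line shared deviations: over 14416 genes, the difference between the controls and that between the mutants had a Pearson r of 0.526 (genes are not replicates).

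Named genes are the highest in the controls, those with the largest falls and all rises per mutant, the highest genes kept, those called in 1 mutant alone that differ most between mutants, and those with the smallest edgeR p; genes named for a role, a line or a promoter were added after their values were seen. The members and gene lists were chosen with earlier results of these data known. Types, positions and promoters are RefSeq (GRCm38.p6). Reads of retrotransposons were not analysed here.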

Additional observations from a re-analysis of the deposited data

How the results depend on the processing

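The counts of lower and lost 1700-Rik genes stayed within 1.5 times under every alternative tried. Lower genes numbered 110 to 220 in the Pld6 KO and 108 to 223 in the Dnmt3L KO library, with 3-fold in place of 2-fold at the low end and a pseudocount of 0.1 FPKM at the high end; TMM-scaled fragments gave 124 in each. Lost genes numbered 127 and 172 in the Pld6 KO and 123 and 170 in the Dnmt3L KO library without the heterozygote and without the wild type, and 133 in each with 20% in place of 10% as the limit. Kept genes ranged from 55 to 95 in the Pld6 KO and from 57 to 88 in the Dnmt3L KO library with 1 control left out, lowest without the wild type (control replicate 2). Higher genes numbered 3 and 4 with a pseudocount of 0.1 FPKM and 0 and 0 with 3-fold; with 1 control left out they numbered 3 and 3 in the Pld6 KO and 2 to 8 in the Dnmt3L KO library. Among genes that overlap no other gene, a choice made after seeing the data, 0 were higher in the Pld6 KO library.

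The edgeR counts of 0 lower genes held with RLE normalization and, in the joint comparison, without any 1 library. They became 54, 51 and 45 without the filter and 107, 104 and 144 with DESeq2, for the Pld6 KO, the Dnmt3L KO and both mutants, and 118 for both mutants with the line block; the cause was not tested. Leaving out a control in the fits of 1 mutant leaves 0 residual degrees of freedom, so these were not run. No called value changed direction. 1700011M02Rik and 1700018G05Rik, which were not called, went from -2.94 and -2.82 to 1.48 and 1.62 on the log2 scale in the Pld6 KO library without the heterozygote. In the Dnmt3L KO library they went from 0.64 and 0.74 to 5.06 and 5.18 without the heterozygote and to -0.33 and -0.23 without the wild type. For single named genes, log2 changes moved by more than the spread of the controls in 32 of 64 values with the smaller pseudocount, 18 without the heterozygote, 10 with TMM-scaled fragments and 0 without the wild type.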
